A study of Homo sapiens with 9 samples.

Results

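Transcript levels of 10 genes of arginine and polyamine metabolism were followed by RNA-seq in BxPC3, an established cell line of human pancreatic ductal adenocarcinoma. The genes were ASS1, ASL, ARG2, ODC1, AMD1, SRM, SMS, SAT1, OAZ1 and AZIN1, found by symbol among the 60564 genes of the deposited table. All 10 were among the 12747 genes that reached 1 FPKM in at least 3 of 9 libraries and were therefore tested. The genes were chosen by measured values, with earlier results of the same comparisons known, that is, the FPKM values and differences between groups given below. The values of the 10 genes are therefore a description with no p-value, and a gene that met the call rule lends no support to the choice.

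Each group held 3 libraries. The STAT3 siRNA group was BxPC3 cells in which STAT3, a transcription factor downstream of cytokine receptors, was targeted by transfected siRNA (small interfering RNA). The WB436B group was BxPC3 cells given the compound WB436B at 0.1 µM, a code name for which no structure is used here. Vehicle-treated BxPC3 cells were the control for both, so the comparisons with vehicle share their vehicle libraries. Cells of all 3 groups grew in RPMI 1640 medium with fetal bovine serum. No non-targeting siRNA and no treatment time appear in the labels, so transfection itself and the loss of STAT3 cannot be told apart. The labels call the libraries biological replicates without saying whether the cultures were separate, so a p-value here reflects only the spread among these libraries, which may be technical. In bulk RNA, fewer cells of a type and less RNA per cell cannot be told apart.

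ASS1 joins citrulline and aspartate to argininosuccinate, and ASL splits that product into arginine and fumarate. Arginase (ARG2 in mitochondria) turns arginine into ornithine, ODC1 decarboxylates ornithine to putrescine, and SRM and SMS extend putrescine to spermidine and then spermine with aminopropyl groups that AMD1 provides from S-adenosylmethionine. SAT1 acetylates spermidine and spermine for export or oxidation, the antizyme OAZ1 sends ODC1 to the proteasome, and the antizyme inhibitor AZIN1 holds antizyme back. Cells that lack ASS1 depend on arginine from outside, and low ASS1 is known from several tumour types, pancreatic cancer among them.

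The promoters of ASS1, ODC1 and SRM are shown because each has a window that holds the E-box CACGTG, a motif that MYC-MAX and related factors are known to bind, and because these genes and SAT1 were the 4 of the 10 that differed from vehicle by more than 1 on the log2 scale in both treatments. The promoter of SAT1, which was lower in both treatments like ASS1, is set beside them as a stretch with no E-box. Sequences are from the RefSeq promoter table on GRCh38.p14, run 5′ to 3′ on the gene's strand, and are cut to the bases before the start that lie outside exons of GENCODE release 29. Capitals mark the E-box.
ASS1: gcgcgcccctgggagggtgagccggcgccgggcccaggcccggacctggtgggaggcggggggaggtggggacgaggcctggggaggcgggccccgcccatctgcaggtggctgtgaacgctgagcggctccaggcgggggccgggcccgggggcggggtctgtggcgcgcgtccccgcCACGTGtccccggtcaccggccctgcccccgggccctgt
ODC1: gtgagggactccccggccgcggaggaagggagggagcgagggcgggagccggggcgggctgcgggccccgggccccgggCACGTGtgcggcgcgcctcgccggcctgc
SRM: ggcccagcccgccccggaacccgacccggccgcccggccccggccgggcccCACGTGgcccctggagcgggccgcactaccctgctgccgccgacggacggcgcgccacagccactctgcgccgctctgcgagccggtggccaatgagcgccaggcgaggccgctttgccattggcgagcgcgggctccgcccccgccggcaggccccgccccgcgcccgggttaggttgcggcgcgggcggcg
SAT1: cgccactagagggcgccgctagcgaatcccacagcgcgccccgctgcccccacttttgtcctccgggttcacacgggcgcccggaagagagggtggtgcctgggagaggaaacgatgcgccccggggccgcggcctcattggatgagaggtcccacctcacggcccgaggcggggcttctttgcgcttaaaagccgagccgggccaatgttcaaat
The ASS1 stretch is chr9:130444711-130444928 on the plus strand (218 bases), upstream of the more downstream of its RefSeq starts, with the first base of the E-box at -71 from the start. The ODC1 stretch is chr2:10448013-10448120 on the minus strand (108 bases), in the intron after the first exon of a longer ODC1 transcript and directly before an internal RefSeq start, with the E-box at -29. The same ODC1 window holds another E-box at 6 bases after the start, beyond the stretch printed. ASS1 and ODC1 each have another window, before a start further upstream, and neither holds the E-box. The SRM stretch is chr1:11060025-11060268 on the minus strand (244 bases), with the E-box at -199. The SAT1 stretch is chrX:23782957-23783172 on the plus strand (216 bases).

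Promoter windows ran from 250 bases before to 50 bases after each start. Windows of 9 of the 10 genes were used, 13 in all, and none of AZIN1 on chromosome 8. Any window of the 10 genes on that chromosome was left out, a step not applied to the background. Some of the 13 windows overlap, so they are not all separate sequences. Those of ASS1 overlap in part, and AMD1 has windows that are nearly the same. The E-box CACGTG, which reads the same on both strands, was in 3 of these 13 windows and 3 of the 9 genes, against 7.26% of all 35116 windows and 8.77% of all 27305 genes. The STAT motif TTCNNNGAA, also the same on both strands, was in 0 of the 13 windows, against 7.66% of all windows. A match is a description of letters in the window and not a site shown to be bound, and no match says only that these letters are not in it.

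STAT3, the targeted gene, was measured as a check of the siRNA label. It averaged 2.86 ± 0.242 FPKM in STAT3 siRNA cells, 10.7 ± 0.230 FPKM in WB436B cells and 15.8 ± 0.623 FPKM in vehicle cells (SD, n = 3 each), a log2 difference from vehicle of -2.12 ± 0.0573 (SE) with siRNA (limma, adjusted p = 1.0e-07) and of -0.52 ± 0.0573 with WB436B (limma, adjusted p = 6.5e-05). Pearson correlations between libraries across the tested genes were 0.980 to 0.988 within groups and 0.918 to 0.941 between groups. Depth was estimated by taking the most common low value, times length, among genes with 1 annotated transcript as 1 fragment. That assumption was not checked. The estimate was 46800000 fragments for vehicle 1 and 14800000 to 20400000 for the other 8 libraries, and a weakly expressed gene rests on few fragments. All 8 ductal and epithelial markers reached 1 FPKM, with sums of 1212 to 1291 FPKM in STAT3 siRNA, 1102 to 1244 in WB436B and 1239 to 1276 in vehicle libraries. None of the acinar, islet and endothelial markers reached 1 FPKM in any library, while COL1A1 of the 5 fibroblast markers and CD14 and CD68 of the 5 leukocyte markers did. Summed fibroblast markers were 2.23 to 2.52 FPKM in STAT3 siRNA, 0.669 to 0.808 in WB436B and 1.69 to 1.93 in vehicle libraries. Summed leukocyte markers were 3.86 to 6.11, 3.13 to 3.55 and 5.90 to 8.26 FPKM in STAT3 siRNA, WB436B and vehicle libraries, and summed endothelial markers 0.235 to 0.382, 0.368 to 0.568 and 0.739 to 1.05 FPKM. The part of these low sums in the results was not tested. FPKM is relative to the total of its own library, and scaling by median-of-ratios moved the median of all genes by 0.13 in WB436B against vehicle and by 0.18 in WB436B against STAT3 siRNA (log2), and quantile normalization by 0.16 and 0.18.

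STAT3 siRNA cells had less ASS1, SAT1, SMS and OAZ1 and more SRM, ODC1, ARG2, AZIN1 and AMD1 transcript than vehicle cells. Of the 10 genes, 5 met the call rule as higher and 4 as lower, while 29.8% of all tested genes were called higher and 22.3% lower. WB436B cells had less ASS1 and SAT1 and more ODC1, SRM, SMS, AMD1 and AZIN1 than vehicle cells. There 5 genes met the call rule as higher and 2 as lower, while 24.9% of all tested genes were called higher and 41.1% lower. Of all calls with WB436B 37.7% were higher, a share that quantile normalization put at 53.0%, median-of-ratios at 49.9% and equal library totals at 43.3%. The call rule was an adjusted p below 0.05 over all tested genes in the limma fit of log2(FPKM + 1), and since these contrasts chose the genes nothing is read from the counts. The median log2 difference of the 10 genes was 0.03 with STAT3 siRNA and 0.40 with WB436B, and that of all tested genes was 0.06 and -0.13. Groups did not overlap for 9 of the 10 genes with siRNA and 8 with WB436B, against 60.5% and 70.1% of all tested genes. At least a 2-fold difference on this scale was seen in 3.95% of all tested genes with STAT3 siRNA and in 10.8% with WB436B.

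**Figure D1:**
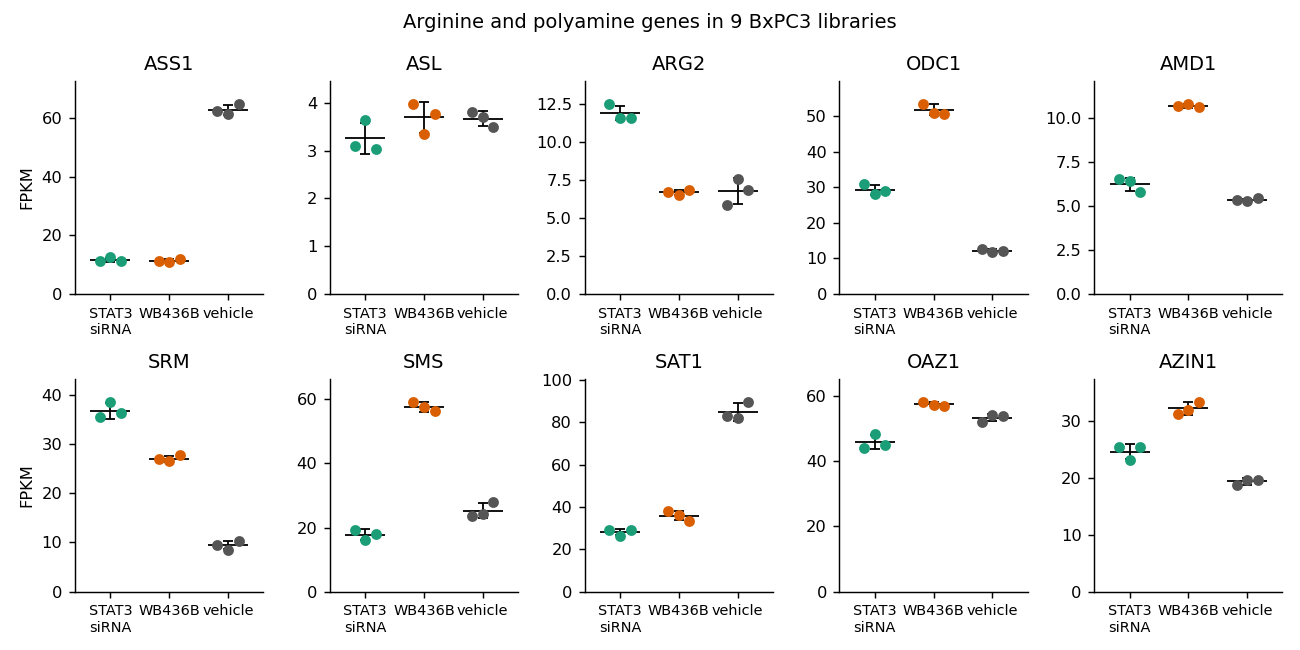
FPKM of each of the 10 genes (y axes, from 0) in the libraries of the STAT3 siRNA, WB436B and vehicle groups (x axes), with points for libraries, a horizontal line for the group mean and bars of ±1 SD (n = 3). ASS1 sits at 10.8 to 12.5 FPKM in all 6 treated libraries and at 61.4 to 64.8 in vehicle, while ODC1 and SRM sit above vehicle in every treated library.

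Among the genes of arginine synthesis, ASS1 (ENSG00000130707, chromosome 9) had the largest difference of the 10 genes in both treatments. It measured 11.2, 12.5 and 11.1 FPKM in the STAT3 siRNA libraries, 11.4, 10.8 and 12.0 FPKM in the WB436B libraries, and 62.3, 61.4 and 64.8 FPKM in the vehicle libraries. The 6 treated libraries lie close together and all vehicle libraries lie far above them. The means were 18.5% of the vehicle mean with siRNA and 18.1% with WB436B, log2 differences of -2.34 ± 0.0578 and -2.37 ± 0.0578 (SE). WB436B and STAT3 siRNA libraries overlapped, at a log2 difference of -0.03 ± 0.0578 that did not meet the call rule. That small difference took the other sign and met the rule with median-of-ratios scaling, at 0.19.

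ASL (ENSG00000126522, chromosome 7), the enzyme after ASS1, was weakly expressed and showed no such difference. Its levels were 3.10, 3.64 and 3.04 FPKM with STAT3 siRNA, 3.98, 3.35 and 3.76 FPKM with WB436B, and 3.80, 3.70 and 3.50 FPKM with vehicle. All 3 groups overlapped. The log2 differences from vehicle, -0.13 ± 0.0749 with siRNA and 0.01 ± 0.0749 with WB436B, did not meet the call rule, although the WB436B difference did with quantile normalization, at 0.21. WB436B differed from siRNA by 0.14 ± 0.0749, which met the rule only with median-of-ratios (0.32), with quantile normalization (0.40) and without STAT3 siRNA 2 (0.20), of the 19 alternatives run for ASL. Of the exon bases of ASL, 17.6% are shared with another annotated gene.

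ARG2 (ENSG00000081181, chromosome 14), the arginase of mitochondria, was higher in STAT3 siRNA cells and near the vehicle level in WB436B cells. It stood at 12.5, 11.6 and 11.6 FPKM with STAT3 siRNA, 6.71, 6.53 and 6.86 FPKM with WB436B, and 5.88, 7.57 and 6.84 FPKM with vehicle. The siRNA libraries were above all others, and those of WB436B lay inside the vehicle range. The log2 differences from vehicle were 0.74 ± 0.0774 with siRNA, which met the call rule, and -0.01 ± 0.0774 with WB436B, which did not and lay on either side of 0 over the alternatives (-0.09 to 0.14), and the difference of WB436B from siRNA was -0.74 ± 0.0774. ARG2 shares 37.4% of its exon bases with VTI1B, and how such fragments were divided is not given in the sources used here. VTI1B averaged 11.1 ± 0.537 FPKM with siRNA, 13.9 ± 0.379 with WB436B and 13.7 ± 0.388 with vehicle, lowest where ARG2 was highest, and its part in the ARG2 values was not tested.

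ODC1 (ENSG00000115758, chromosome 2), the enzyme that commits ornithine to polyamines, was higher in both treatments and highest with WB436B. Its levels were 30.8, 28.0 and 28.8 FPKM in STAT3 siRNA libraries, 53.4, 50.9 and 50.6 FPKM in WB436B libraries, and 12.6, 11.9 and 12.2 FPKM in vehicle libraries. The 3 groups are separate, with WB436B on top and vehicle at the bottom. Means were 239% of vehicle with siRNA and 422% with WB436B, log2 differences of 1.19 ± 0.0478 and 1.99 ± 0.0478, and WB436B exceeded siRNA by 0.80 ± 0.0478. The promoter stretch printed for ODC1, a known target of MYC, is the intronic one with its E-box at -29.

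AMD1 (ENSG00000123505, chromosome 6), which makes the aminopropyl donor, was higher mainly with WB436B. It measured 6.52, 6.40 and 5.82 FPKM with STAT3 siRNA, 10.7, 10.8 and 10.6 FPKM with WB436B, and 5.33, 5.31 and 5.43 FPKM with vehicle. The groups do not overlap, but the siRNA libraries come close to vehicle. The log2 difference from vehicle was 0.19 ± 0.0487 with siRNA and 0.88 ± 0.0487 with WB436B, and WB436B exceeded siRNA by 0.69 ± 0.0487. With median-of-ratios scaling the siRNA difference was 0.12 and no longer met the call rule.

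The aminopropyl transferases SRM and SMS went the same way with WB436B and opposite ways with siRNA. SRM (ENSG00000116649, chromosome 1), spermidine synthase, stood at 35.4, 38.6 and 36.3 FPKM in STAT3 siRNA libraries, 26.9, 26.5 and 27.7 FPKM in WB436B libraries, and 9.58, 8.57 and 10.2 FPKM in vehicle libraries. All 3 groups are separate, with siRNA on top. Means were 389% of vehicle with siRNA and 286% with WB436B, log2 differences of 1.85 ± 0.0630 and 1.43 ± 0.0630, and WB436B was lower than siRNA by a log2 difference of -0.43 ± 0.0630.

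SMS (ENSG00000102172, chromosome X), spermine synthase, had 19.4, 16.0 and 18.1 FPKM with STAT3 siRNA, 59.3, 57.5 and 56.3 FPKM with WB436B, and 23.7, 24.2 and 28.1 FPKM with vehicle. The siRNA libraries lie below all vehicle libraries and the WB436B libraries lie far above them. Means were 70.4% of vehicle with siRNA and 228% with WB436B, log2 differences of -0.48 ± 0.0818 and 1.16 ± 0.0818. WB436B exceeded siRNA by 1.64 ± 0.0818, the widest gap between the treatments among the 10 genes.

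SAT1 (ENSG00000130066, chromosome X), the acetyltransferase that starts polyamine breakdown, was lower in both treatments. Its levels were 29.2, 26.4 and 28.9 FPKM with STAT3 siRNA, 37.9, 36.2 and 33.5 FPKM with WB436B, and 82.9, 82.1 and 89.7 FPKM with vehicle. The treated groups lie well below vehicle and siRNA lies lowest. Means were 33.2% of vehicle with siRNA and 42.3% with WB436B, log2 differences of -1.56 ± 0.0625 and -1.22 ± 0.0625, and WB436B exceeded siRNA by 0.34 ± 0.0625.

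The antizyme OAZ1 (ENSG00000104904, chromosome 19) moved little. It measured 44.1, 48.2 and 44.8 FPKM with STAT3 siRNA, 58.2, 57.2 and 56.9 FPKM with WB436B, and 51.9, 54.1 and 53.8 FPKM with vehicle. Each siRNA library is below, and each WB436B library above, every vehicle library. The log2 difference of -0.22 ± 0.0427 with siRNA met the call rule, and that of 0.11 ± 0.0427 with WB436B did not. The WB436B difference met the rule with equal library totals (0.18), with median-of-ratios (0.27), in a fit of only the groups compared (0.11) and without STAT3 siRNA 2 (0.11), and was -0.04 with quantile normalization. OAZ1 protein is made by a frameshift that polyamines favour, which transcript levels do not show.

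AZIN1 (ENSG00000155096, chromosome 8), an enzymatically inactive relative of ODC1 that binds antizyme, was higher in both treatments. It stood at 25.4, 23.1 and 25.5 FPKM with STAT3 siRNA, 31.2, 31.9 and 33.4 FPKM with WB436B, and 18.7, 19.7 and 19.7 FPKM with vehicle. The groups are separate, in the order vehicle, siRNA, WB436B. Log2 differences from vehicle were 0.33 ± 0.0509 with siRNA and 0.70 ± 0.0509 with WB436B, and WB436B exceeded siRNA by 0.37 ± 0.0509.

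**Figure D2:**
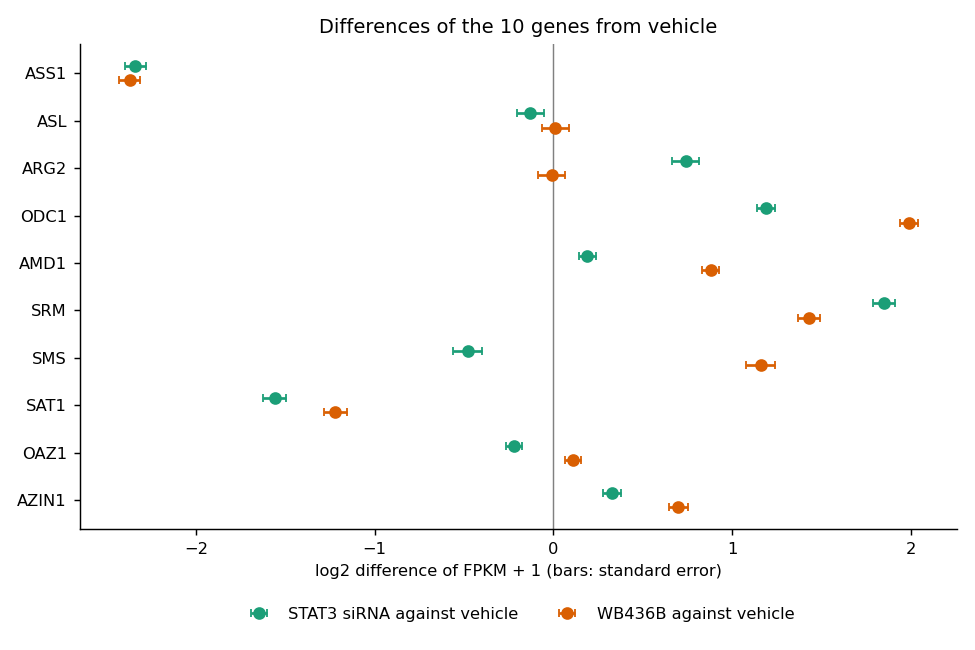
Log2 difference of FPKM + 1 from vehicle (x axis) for each of the 10 genes (y axis), for STAT3 siRNA and WB436B, with bars of ±1 standard error from the limma fit. ASS1 stands at -2.34 and -2.37, and SMS is the gene whose points lie furthest apart, at -0.48 with siRNA and 1.16 with WB436B.

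Between the treatments, 6 of the 10 genes met the call rule as higher in WB436B cells than in STAT3 siRNA cells and 2 as lower, while 20.0% of all tested genes were called higher and 44.1% lower. Of all these calls 31.2% were higher, 32.4% with equal library totals and 50.6% with median-of-ratios scaling. SMS, ODC1, AMD1, AZIN1, SAT1 and OAZ1 were the higher genes, and ARG2 and SRM the lower ones. ASS1 and ASL did not meet the rule. The median log2 difference was 0.33 over the 10 genes and -0.18 over all tested genes. For the 8 called genes the direction was the same under the 3 other scalings, and the call was kept in each of the 20 alternatives. Scaling moved the size of 4 of these differences by more than 1.5 times, to between -0.55 and -0.20 for SRM, 0.21 and 0.57 for SAT1, 0.15 and 0.55 for OAZ1, and 0.25 and 0.60 for AZIN1. Groups did not overlap for 8 of the 10 genes, against 70.2% of all tested genes.

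FPKM is per length, so levels of the 10 genes can also be ordered within a group. Exons shared with other genes, such as 37.4% of exon bases for ARG2 and 17.6% for ASL, may shift this order. So may the unstated annotation and FPKM program, and neither was tested. In vehicle cells the order of mean FPKM was SAT1 (84.9), ASS1 (62.8), OAZ1 (53.3), SMS (25.3), AZIN1 (19.4), ODC1 (12.2), SRM (9.45), ARG2 (6.76), AMD1 (5.36) and ASL (3.67), and no neighbours overlapped. With STAT3 siRNA it was OAZ1 (45.7), SRM (36.7), ODC1 (29.2), SAT1 (28.2), AZIN1 (24.6), SMS (17.8), ARG2 (11.9), ASS1 (11.6), AMD1 (6.24) and ASL (3.26), where ODC1 overlapped SAT1 and ARG2 overlapped ASS1. With WB436B it was SMS (57.7), OAZ1 (57.4), ODC1 (51.7), SAT1 (35.9), AZIN1 (32.2), SRM (27.0), ASS1 (11.4), AMD1 (10.7), ARG2 (6.70) and ASL (3.70), where only SMS and OAZ1 overlapped. SAT1 and ASS1 headed the order in vehicle cells, OAZ1 and SRM in STAT3 siRNA cells, and SMS and OAZ1 in WB436B cells.

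Ratios of FPKM within a library, which a factor applied to a whole library cannot change, set genes of the pathway beside each other. ODC1 stood to its antizyme OAZ1 at 0.698, 0.581 and 0.642 with STAT3 siRNA, 0.918, 0.891 and 0.890 with WB436B, and 0.243, 0.220 and 0.227 with vehicle. The ratio was highest in all WB436B libraries and lowest in all vehicle libraries. AZIN1 to OAZ1 was 0.541 ± 0.0532 with siRNA, 0.560 ± 0.0252 with WB436B and 0.364 ± 0.00290 with vehicle (SD, n = 3 each), and the treated groups overlapped each other but not vehicle.

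SAT1 to ODC1, a breakdown gene over a synthesis gene, was 0.949, 0.943 and 1.00 with siRNA, 0.710, 0.711 and 0.662 with WB436B, and 6.57, 6.91 and 7.35 with vehicle. The ratio was several times higher in every vehicle library than in any treated one. SMS to SRM was 0.549, 0.415 and 0.499 with siRNA, 2.21, 2.17 and 2.03 with WB436B, and 2.48, 2.83 and 2.75 with vehicle. Here siRNA libraries stand far below the rest, and WB436B libraries are below vehicle by a small margin. These ratios are descriptions of transcripts, since the genes were chosen with their values known, and no metabolite or enzyme activity was measured.

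**Figure D3:**
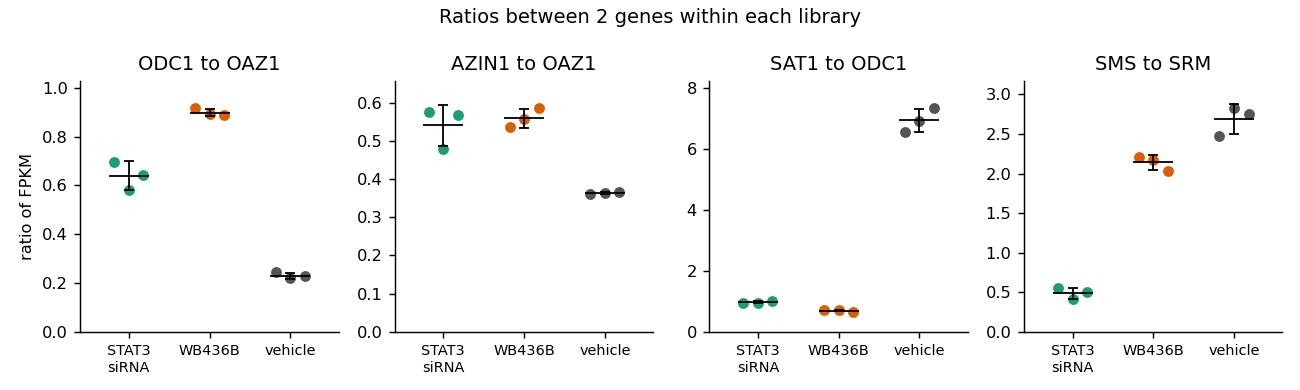
Ratio of FPKM of 2 genes within each library (y axes, from 0) for ODC1 to OAZ1, AZIN1 to OAZ1, SAT1 to ODC1 and SMS to SRM in the STAT3 siRNA, WB436B and vehicle groups (x axes), with points for libraries and the group mean ± 1 SD. SAT1 to ODC1 is 6.57 or more in vehicle and at most 1.00 in treated libraries, and SMS to SRM is low in STAT3 siRNA libraries only.

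Other genes of the pathways came from 5 lists that together held 52 genes, of which 37 were tested and 15 were below the filter. With STAT3 siRNA 20 rose and 3 fell, while 29.8% of all tested genes rose and 22.3% fell. With WB436B 19 rose and 8 fell, while 24.9% of all tested genes rose and 41.1% fell. Their median log2 difference from vehicle was 0.28 with siRNA and 0.15 with WB436B, against 0.06 and -0.13 for all tested genes. Between WB436B and STAT3 siRNA 11 were higher, 13 lower and 13 not called, while 20.0% of all tested genes were higher and 44.1% lower. The counts of genes that rose against vehicle include SLC12A8, whose vehicle libraries were all below the filter level. It was tested only through treated libraries, so its part in these counts is no support. The lists were drawn up from knowledge of the pathways, but with earlier results of these data known. Most genes named below were picked for large called differences in these same comparisons. Their p-values therefore describe the fit and lend no support to the choice of genes.

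The list of arginine supply and use had 20 genes, 11 of them tested. In STAT3 siRNA cells 8 rose and 1 fell (background 29.8% and 22.3% of all tested genes), and in WB436B cells 7 rose and 3 fell (background 24.9% and 41.1%). SLC25A15, the mitochondrial ornithine carrier, rose in both, to 6.24 ± 0.253 FPKM with siRNA and 6.99 ± 0.144 FPKM with WB436B, against 2.84 ± 0.159 FPKM with vehicle, log2 differences of 0.92 (limma, adjusted p = 3.3e-06) and 1.06 (adjusted p = 6.1e-07). SLC25A29, a mitochondrial carrier of basic amino acids, fell in both, to 3.96 ± 0.234 FPKM with siRNA and 1.17 ± 0.235 FPKM with WB436B, against 5.83 ± 0.156 FPKM with vehicle, log2 differences of -0.46 (adjusted p = 0.0018) and -1.66 (adjusted p = 6.8e-07). The genes CPS1 and GATM, named here after their values were seen, were the other genes of the list that fell with WB436B (log2 -0.32 and -0.57), and both rose with siRNA (log2 0.37 each). ARG1, OTC and the nitric oxide synthases NOS1, NOS2 and NOS3 were all below the filter.

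The cationic amino acid transporter SLC7A2 averaged 3.47 ± 0.267 FPKM with siRNA, 3.58 ± 1.30 FPKM with WB436B and 1.49 ± 0.991 FPKM with vehicle, a log2 difference of 0.92 in each comparison (limma, adjusted p = 0.024 with siRNA and 0.019 with WB436B). Its vehicle libraries were uneven: without vehicle 2 the differences were 0.64 (adjusted p = 0.068) and 0.65 (0.054). Its siRNA call was also lost without vehicle 1 (0.062) or without STAT3 siRNA 1 (0.068), 2 (0.054) or 3 (0.052), and its WB436B call without WB436B 2 (0.064). AGMAT, annotated as agmatinase, stood at 2.64 ± 0.370 FPKM with siRNA, 3.45 ± 0.345 FPKM with WB436B and 1.75 ± 0.362 FPKM with vehicle, log2 differences of 0.41 (adjusted p = 0.015) and 0.70 (adjusted p = 6.0e-04). Its siRNA call was lost without vehicle 1 (adjusted p = 0.052), vehicle 2 (0.053) or STAT3 siRNA 3 (0.053).

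Of the 7 genes that link ornithine, glutamate and proline, 6 were tested, and 2 rose and 1 fell with siRNA (background 29.8% and 22.3% of all tested genes) while 3 rose with WB436B (background 24.9% and 41.1%). ALDH18A1, which makes pyrroline-5-carboxylate from glutamate, rose to 26.5 ± 0.700 FPKM with siRNA and 30.1 ± 0.970 FPKM with WB436B, against 17.0 ± 0.245 FPKM with vehicle, log2 differences of 0.61 (limma, adjusted p = 7.7e-06) and 0.79 (7.6e-07). PYCR1, which completes proline, rose to 9.79 ± 1.22 FPKM and 11.0 ± 1.59 FPKM, against 5.74 ± 1.16 FPKM with vehicle, log2 differences of 0.69 (adjusted p = 0.0053) with siRNA and 0.85 (0.0012) with WB436B, and shares 29.7% of its exon bases with other genes. PYCR3, a relative of it, rose with WB436B and did not pass the test with siRNA, at 1.95 ± 0.123 FPKM with siRNA, 3.22 ± 0.185 FPKM with WB436B and 1.79 ± 0.241 FPKM with vehicle (log2 0.08, adjusted p = 0.40, and log2 0.60, adjusted p = 1.3e-04). The difference of WB436B from siRNA for PYCR3 was 0.52 (adjusted p = 3.5e-04). OAT, which interconverts ornithine and pyrroline-5-carboxylate, fell with siRNA to 53.2 ± 3.38 FPKM and stood at 79.6 ± 3.51 FPKM with WB436B, against 72.8 ± 2.53 FPKM with vehicle (log2 -0.45, adjusted p = 2.9e-04, and log2 0.13, adjusted p = 0.078). The OAT difference with WB436B met the rule with equal totals (log2 0.20, adjusted p = 0.012), with median-of-ratios (0.29, adjusted p = 0.0020), without STAT3 siRNA 2 (adjusted p = 0.044) and without WB436B 3 (adjusted p = 0.047).

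The list of polyamine breakdown, transport and antizyme relatives had 12 genes, 9 of them tested, and most were not called. In STAT3 siRNA cells 3 rose (background 29.8% and 22.3% of all tested genes), and in WB436B cells 2 rose and 1 fell (background 24.9% and 41.1%). SLC12A8, a cation-chloride cotransporter relative linked to polyamine uptake, rose to 2.06 ± 0.101 FPKM with siRNA and 1.89 ± 0.220 FPKM with WB436B, against 0.835 ± 0.0442 FPKM with vehicle, log2 differences of 0.74 (limma, adjusted p = 4.5e-05) and 0.66 (4.2e-05). All vehicle libraries of SLC12A8, at 0.809 to 0.886 FPKM, were below the filter level. It was tested only through the treated libraries, where it was high, so its calls and p-values are no support. SLC18B1, a vesicular polyamine transporter, rose with siRNA to 8.67 ± 0.344 FPKM and stood at 5.27 ± 0.645 FPKM with WB436B, against 5.27 ± 0.247 FPKM with vehicle (log2 0.62, adjusted p = 2.1e-04, and log2 -0.01, adjusted p = 0.95). ATP13A2, the lysosomal polyamine exporter, rose to 8.71 ± 0.462 FPKM with siRNA and 6.49 ± 0.191 FPKM with WB436B, against 5.80 ± 0.147 FPKM with vehicle (log2 0.51, adjusted p = 6.5e-05, and log2 0.14, adjusted p = 0.037). The small WB436B difference of ATP13A2 lost its call in 7 of 20 alternatives, among them with no filter (adjusted p = 0.054) and without vehicle 1 (adjusted p = 0.095), vehicle 2 (0.093), STAT3 siRNA 1 (0.051), WB436B 1 (0.091) or WB436B 3 (0.097). SAT2, a relative of SAT1, stood at 2.96 ± 0.471 FPKM with siRNA, 2.21 ± 0.406 FPKM with WB436B and 2.96 ± 0.207 FPKM with vehicle (log2 -0.01, adjusted p = 0.97, and log2 -0.31, adjusted p = 0.040). Its call with WB436B was lost in 10 of 19 alternatives, among them without vehicle 1 (0.11), vehicle 2 (0.067), vehicle 3 (0.062), STAT3 siRNA 2 (0.055), WB436B 1 (0.13) or WB436B 2 (0.074).

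Spermidine is also used up to make hypusine, a modified lysine in the translation factor EIF5A, and all 4 genes of that list were tested. With siRNA 3 rose (background 29.8% and 22.3% of all tested genes), and with WB436B 3 rose and 1 fell (background 24.9% and 41.1%). EIF5A rose to 104 ± 7.85 FPKM with siRNA and 148 ± 7.84 FPKM with WB436B, against 78.4 ± 2.75 FPKM with vehicle, log2 differences of 0.41 (limma, adjusted p = 9.2e-04) and 0.91 (4.5e-06). Its relative EIF5A2 rose to 2.43 ± 0.0638 FPKM and 4.68 ± 0.147 FPKM, against 1.75 ± 0.154 FPKM with vehicle, log2 differences of 0.32 (adjusted p = 0.0017) with siRNA and 1.04 (1.0e-06) with WB436B. DOHH, which finishes hypusine, stood at 1.87 ± 0.251 FPKM with siRNA, 3.20 ± 0.142 FPKM with WB436B and 1.26 ± 0.445 FPKM with vehicle (log2 0.36, adjusted p = 0.048, and log2 0.91, adjusted p = 3.1e-04). DHPS, which starts it, stood at 4.57 ± 0.440 FPKM with siRNA, fell to 2.85 ± 0.203 FPKM with WB436B and was 5.14 ± 0.699 FPKM with vehicle (log2 -0.14, adjusted p = 0.26, and log2 -0.67, adjusted p = 2.8e-04), and shares 41.8% of its exon bases with other genes. The siRNA call of DOHH, whose siRNA libraries overlap vehicle, was lost in 12 of 19 alternatives, among them without vehicle 2 (adjusted p = 0.14), vehicle 3 (0.14), STAT3 siRNA 1 (0.13), STAT3 siRNA 3 (0.12), WB436B 1 (0.065), WB436B 2 (0.065) or WB436B 3 (0.066).

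The methionine cycle and the salvage of methylthioadenosine, a by-product of SRM and SMS, had 9 genes, 7 of them tested. With siRNA 4 rose and 1 fell (background 29.8% and 22.3% of all tested genes), and with WB436B 4 rose and 3 fell (background 24.9% and 41.1%). MTAP, the enzyme that takes up methylthioadenosine, was listed at 0 in all 9 libraries. ENOPH1, of the same salvage path, rose to 17.2 ± 0.997 FPKM with siRNA and 25.6 ± 0.454 FPKM with WB436B, against 14.0 ± 0.925 FPKM with vehicle, log2 differences of 0.28 (limma, adjusted p = 0.0044) and 0.83 (4.5e-06). ADI1, also of this path, rose to 7.19 ± 0.126 FPKM and 6.24 ± 0.378 FPKM, against 5.02 ± 0.100 FPKM with vehicle (log2 0.45, adjusted p = 1.5e-04 with siRNA, and log2 0.27, adjusted p = 0.0017 with WB436B).

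AHCY, which clears S-adenosylhomocysteine, rose to 77.1 ± 1.82 FPKM with siRNA and 66.1 ± 3.40 FPKM with WB436B, against 54.6 ± 1.43 FPKM with vehicle (limma, log2 0.49, adjusted p = 5.3e-05, and log2 0.27, adjusted p = 8.8e-04). MAT2B, a regulatory subunit of S-adenosylmethionine synthetase, fell to 15.9 ± 0.758 FPKM with siRNA and 18.1 ± 0.908 FPKM with WB436B, against 22.6 ± 2.36 FPKM with vehicle (limma, log2 -0.47, adjusted p = 0.0011, and log2 -0.30, adjusted p = 0.0086). The WB436B calls were lost for AHCY with quantile normalization (log2 0.12, adjusted p = 0.10) and for MAT2B with median-of-ratios (log2 -0.14, adjusted p = 0.15).

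**Figure D4:**
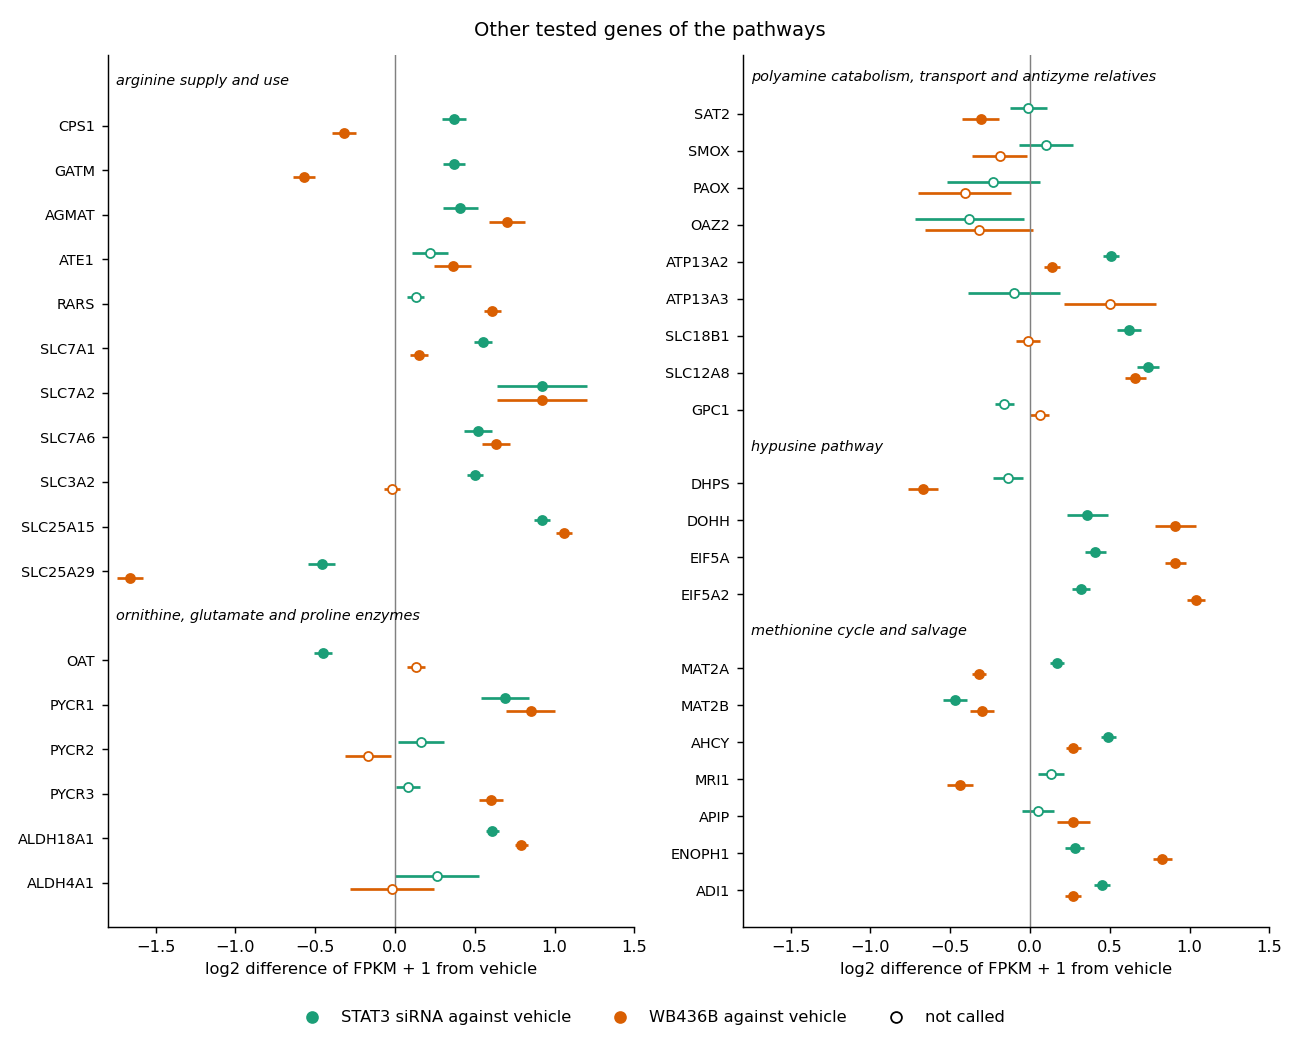
Log2 difference of FPKM + 1 from vehicle (x axes) for the 37 tested genes of the 5 lists (y axes), for STAT3 siRNA and WB436B, with bars of ±1 standard error and open points for genes not called. SLC25A15 and SLC25A29 lie furthest right and left in their list with WB436B, at 1.06 and -1.66, and EIF5A2 stands at 1.04.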

How the data were processed

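Total RNA of 9 BxPC3 libraries was sequenced after library preparation by standard Illumina procedures, per the labels' protocols. The authors deposited 1 table of FPKM values (fragments scaled by transcript length and by the library's mapped fragments) for human Ensembl gene identifiers, without coordinates. Bowtie 0.12.2 and the genome build mm8 are named, per the submitters' processing notes; that build is of the mouse, and the identifiers are human, so the build used is uncertain. No FPKM program, annotation or strandedness is stated in the sources used here.

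Because no counts were given, log2(FPKM + 1) was fitted with R 4.3.3 and the package limma 3.58.1 (a variance trend, a mean per group over all 9 libraries, 6 residual degrees of freedom). This scale understates the change of weakly expressed genes. Genes reaching 1 FPKM in 3 or more libraries (21.0%) were tested, two-sided, with Benjamini-Hochberg adjustment over all of them, and called at an adjusted p below 0.05. The ± values of FPKM are SD over 3 libraries and those of log2 differences are SE. The fitting steps were tried on simulated data for STAT3 siRNA against vehicle only, with far fewer changed genes than were called here. That run checks the code and not the calls in these data.

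The 10 genes were chosen with earlier results of these data known. The companion lists were drawn up from knowledge of the pathways, also with those results known. Named with values by rule were the 10 genes, STAT3, MYC, HIF1A, ATF4, NFE2L2 and MTAP. Of each companion list, the rule added up to 4 called genes with the largest difference from vehicle. Outside the rule, CPS1, GATM and PRODH were given values after these were seen, and VTI1B for its exons shared with ARG2. RARS1 was matched as RARS. Exon overlap and intron positions came from GENCODE release 29. Alternatives were pseudocounts of 0.1 and 0.5, no filter, a filter of 5 FPKM, 3 other scalings, robust variance, no variance trend, fits limited to the groups compared, a replicate block and leaving out each library. Pseudogene copies and antisense genes of the 10 genes (19 rows) reached at most 0.484 FPKM.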

Additional observations from a re-analysis of the deposited data

How the results depend on the processing

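A total of 20 alternatives was run. Among the 10 genes, the call stayed the same in every alternative run for 9 with STAT3 siRNA (all but AMD1), 8 with WB436B (all but ASL and OAZ1) and 8 between the treatments (all but ASS1 and ASL). ASL is below the filter of 5 FPKM, so that filter gave no value for it. ASS1 between WB436B and STAT3 siRNA took the other sign with a call, 0.19 with median-of-ratios scaling. The filter of 5 FPKM, which leaves fewer genes, gave 4138 calls over all genes with STAT3 siRNA, 4860 with WB436B and 4629 between the treatments, against 6638, 8402 and 8175. With it, 13 companion genes rose with siRNA, 15 were called with WB436B (12 higher, 3 lower) and 15 between the treatments (7 higher, 8 lower). Without a filter 5 companion genes fell with siRNA, among them PRODH (log2 -0.69), which was below the filter of 1 FPKM. With quantile normalization 5 fell with WB436B. The causes of the other changes were not tested. Leaving out each library gave 5915 to 6597 calls over all genes with siRNA, 7746 to 8396 with WB436B and 7545 to 8290 between the treatments, and 20 to 24, 23 to 27 and 21 to 24 calls among the companion genes. Differences near 0 changed sign without a call for SAT2 with siRNA (0.03 with equal totals, 0.04 without vehicle 1, -0.09 to 0.09 over the libraries left out), for SLC18B1 with WB436B (0.05 with equal totals, 0.13 with median-of-ratios, 0.14 with quantile normalization, -0.09 to 0.04 over the libraries left out) and for MYC with siRNA (-0.05 without vehicle 1, up to 0.91 without vehicle 3). Of the 10 genes with WB436B, ARG2 changed sign in 6 alternatives (-0.09 to 0.14) and ASL in 3 (-0.04 to 0.21), and OAZ1 in 1 (-0.04).

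Other scalings moved the share of calls that were higher with WB436B from 37.7% to 43.3% (equal totals), 49.9% (median-of-ratios) and 53.0% (quantile). Between the treatments the share was 31.2%, and it was 32.4% with equal totals and 50.6% with median-of-ratios. Quantile normalization gave 3583 higher and 3585 lower calls between the treatments. With siRNA the share was 57.2%, and 48.6% to 63.5% with other scalings. Deviations from the group means of libraries with the same replicate number had correlations of -0.0847 to 0.158 over the 9 pairs. Those between vehicle and STAT3 siRNA were all positive, at 0.0419 to 0.158. Differently numbered pairs were not set beside them, so whether the numbers mark a pairing was not tested. A replicate block gave 6312 calls over all genes with siRNA, 8152 with WB436B and 7959 between the treatments, and 22, 24 and 22 among the companion genes. The block changed 0 calls among the 10 genes and, of the companion genes against vehicle, those of DOHH with siRNA and of SLC7A1, ATP13A2 and APIP with WB436B.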

Other observations

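Regulators known to act on genes of arginine and polyamine metabolism did not move as a group. MYC, a known activator of ODC1, varied widely within groups: it measured 10.5, 11.3 and 3.49 FPKM with STAT3 siRNA, 14.1, 13.1 and 14.8 FPKM with WB436B, and 2.93, 4.30 and 13.9 FPKM with vehicle. The vehicle and siRNA libraries overlap, and 1 vehicle library lies within the WB436B range. The log2 difference from vehicle was 0.34 with siRNA (limma, adjusted p = 0.61) and 1.15 with WB436B (limma, adjusted p = 0.082), and the WB436B difference was called without vehicle 3 (1.71, adjusted p = 0.0076) or without STAT3 siRNA 3 (adjusted p = 0.049).

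HIF1A, the oxygen-regulated factor, fell to 92.0 ± 3.45 FPKM with siRNA and 101 ± 9.16 FPKM with WB436B, against 174 ± 14.9 FPKM with vehicle (SD, n = 3 each; limma, log2 -0.91, adjusted p = 3.8e-05, and log2 -0.77, adjusted p = 4.6e-05). ATF4, an activator of amino acid supply genes, rose to 209 ± 6.12 FPKM with siRNA and fell to 107 ± 6.26 FPKM with WB436B, against 152 ± 6.73 FPKM with vehicle (limma, log2 0.46, adjusted p = 1.8e-04, and log2 -0.51, adjusted p = 5.1e-05). The ATF4 difference between WB436B and siRNA was -0.97 (limma, adjusted p = 2.0e-06). NFE2L2, the antioxidant factor, had a log2 difference of -0.29 with siRNA (limma, adjusted p = 0.047), a call that was lost in 11 of 20 alternatives, and of -0.21 with WB436B (limma, adjusted p = 0.11).

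PRODH, the enzyme that starts proline breakdown, was below the filter and is named after its values were seen. It measured 0.0575, 0.0734 and 0.132 FPKM with STAT3 siRNA, 0.0190, 0.00671 and 0.0171 FPKM with WB436B, and 0.807, 0.773 and 0.692 FPKM with vehicle. The 3 groups do not overlap. In the fit with no filter its log2 difference from vehicle was -0.69 with siRNA (limma, adjusted p = 4.3e-05) and -0.79 with WB436B (limma, adjusted p = 9.1e-06). Because the same values led to its naming, these p-values lend it no support. At such low levels the scale of FPKM + 1 also shrinks the differences.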
